A study of Mus musculus with 19 samples.

Results

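The H2-Mv genes are 9 nonclassical MHC class I genes (H2-M1, H2-M9, H2-M10.1 to H2-M10.6 and H2-M11) that are known for their expression in basal sensory neurons of the mouse vomeronasal organ (VNO). They were taken here by name together with B2m, which encodes β2-microglobulin, the light chain shared by class I molecules. These 10 genes were read out of the 35596 genes of an mRNA-seq series on the loss of Smad4, and all 10 passed the filter on low counts in every comparison. The series asked how TGFβ/BMP signaling through Smad4, the mediator common to both branches of the pathway, acts in maturing and in mature vomeronasal sensory neurons (VSNs).

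Libraries were made from whole VNOs of female mice at postnatal day 21. In the AP-2εCre line there were 3 libraries of AP2eCre +/- SMAD4 Flox conditional knockouts (cKO; 1 Cre allele with Smad4 flox/flox), 3 of AP2eCre +/- heterozygotes that carry Cre and no floxed Smad4, and 3 of Smad4 flox/flox controls without Cre, which the labels call Wild Type. The OMPCre line had the same 3 kinds of animal, with 3 libraries each, labelled OMPCre +/- SMAD4 Flox, OMPCre +/- and Wild Type. AP-2εCre is a knock-in at Tfap2e, a transcription factor gene of basal VSNs, and recombines in immature basal VSNs. OMPCre is a knock-in at Omp, the gene of olfactory marker protein, and recombines in apical as well as basal VSNs once they are mature. Cre carriers of either line therefore lack 1 working copy of the gene that holds Cre, in the cKO as in the heterozygotes, whereas the flox controls have both copies. The labels number the libraries as biological replicates. One more AP-2εCre library carried labels of a heterozygote and of a cKO and entered none of the comparisons given here; it was added as a heterozygote in 1 alternative only.

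Libraries held 43385516 to 134042284 estimated counts. Smad4 itself was read at 33.8 to 66.5 CPM (estimated counts scaled for library size by the TMM method) in the AP-2εCre cKO, 41.5 to 79.7 in the heterozygotes and 39.6 to 81.0 in the flox controls, so these groups overlapped. In the OMPCre line the cKO (54.4 to 62.5 CPM) lay below all controls (64.8 to 83.9 CPM). A gene count takes in exons that the deletion leaves and cells in which Cre is not active. Although the labels name VSN types as the cell type, apical markers (Gnai2, Meis2, Nrp2 and Pde4a) summed to 800 to 1073 CPM in every library, beside 457 to 1129 CPM for 10 basal markers, so the RNA was that of the whole organ. In such bulk RNA, fewer basal VSNs and less RNA per basal VSN cannot be told apart.

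Class I molecules consist of a heavy chain held at the cell surface by β2-microglobulin, and classical ones (H2-K1 and H2-D1) present peptides to T cells. H2-Mv proteins are heavy chains of the nonclassical kind. They are found with vomeronasal type 2 receptors (V2Rs) in subsets of basal VSNs, the neurons marked by the G protein Gαo (Gnao1), and combinations of H2-Mv genes go with particular V2R genes. Apical VSNs, which use Gαi2 (Gnai2) and type 1 receptors, are known to lack them.

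In the GENCODE vM21 annotation of GRCm38 (mm10) the 9 H2-Mv genes lie together at the telomeric end of the MHC, within 531 kb of chromosome 17 (chr17:36284227-36815564) that also holds other genes, 29 in all. From the low coordinate upwards, H2-M10.2 (ENSMUSG00000023083.7, 36284227 to 36286490), H2-M10.1 (ENSMUSG00000024448.14, 36322858 to 36326155), H2-M10.3 (ENSMUSG00000058124.4, 36365003 to 36368417) and H2-M10.4 (ENSMUSG00000048231.14, 36458917 to 36462334) are read from the minus strand. H2-M11 (ENSMUSG00000037537.6, 36547075 to 36549250) follows on the plus strand. H2-M9 (ENSMUSG00000067201.11, 36639285 to 36642666) and H2-M1 (ENSMUSG00000037334.2, 36670008 to 36672219) are again on the minus strand, and H2-M10.5 (ENSMUSG00000037246.6, 36772910 to 36776234) and H2-M10.6 (ENSMUSG00000037130.4, 36812171 to 36815564) on the plus strand. B2m (ENSMUSG00000060802.8) is unlinked, at chr2:122147686-122153083 on the plus strand. Each H2-Mv gene has 5 or 6 exons, and all are annotated as protein coding.

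By coding sequence the H2-Mv genes fall into an H2-M10 group, whose members shared 82.9% (H2-M10.4 with H2-M10.5) to 89.6% (H2-M10.3 with H2-M10.5) of aligned bases, and a group of H2-M1, H2-M9 and H2-M11. H2-M1 and H2-M9 shared 85.6%, and H2-M11 shared 72.2% with H2-M1 and 71.4% with H2-M9. Between the groups the identity was 61.7% to 66.9%. With reads this alike, counts of neighbours could leak into each other. Of all 75-base stretches, the length of a read, 95.5% (H2-M10.2) to 100% (H2-M1, H2-M9, H2-M10.1, H2-M11 and B2m) occurred in no transcript of another gene. For H2-M10.4, the member with the highest estimate in the cKO of both lines, 98.7% of stretches were its own.

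The promoters are shown because the members varied together in some groups of libraries and apart in others, and because the stretch just before the start of transcription holds a motif found in all 10. Each line gives the 60 bases from 100 to 41 bases before the RefSeq start (GRCm38.p6), 5′ to 3′ on the strand of the gene, with the CCAAT box in capitals (CCAAT, or ATTGG where it lies on the other strand). For H2-M9, which has 2 RefSeq starts, the one that lines up with H2-M1 is shown.
H2-M1, chr17:36672238-36672297, minus strand: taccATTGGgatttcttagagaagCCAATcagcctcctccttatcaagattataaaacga
H2-M9, chr17:36642685-36642744, minus strand: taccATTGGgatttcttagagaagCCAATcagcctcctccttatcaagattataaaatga
H2-M11, chr17:36546975-36547034, plus strand: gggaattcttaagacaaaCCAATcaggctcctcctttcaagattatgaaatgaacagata
H2-M10.1, chr17:36326191-36326250, minus strand: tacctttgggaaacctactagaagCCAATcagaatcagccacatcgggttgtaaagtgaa
H2-M10.2, chr17:36286462-36286521, minus strand: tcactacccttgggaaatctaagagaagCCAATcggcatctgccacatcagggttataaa
H2-M10.3, chr17:36368458-36368517, minus strand: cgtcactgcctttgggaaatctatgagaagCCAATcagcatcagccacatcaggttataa
H2-M10.4, chr17:36462370-36462429, minus strand: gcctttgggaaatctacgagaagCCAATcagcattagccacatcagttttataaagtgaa
H2-M10.5, chr17:36772810-36772869, plus strand: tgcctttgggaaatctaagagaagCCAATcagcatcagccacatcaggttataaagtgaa
H2-M10.6, chr17:36812075-36812134, plus strand: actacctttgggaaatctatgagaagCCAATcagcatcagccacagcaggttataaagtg
B2m, chr2:122147587-122147646, plus strand: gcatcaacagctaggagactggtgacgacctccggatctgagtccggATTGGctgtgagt

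A CCAAT box lay within 100 bases of the start in 10 of 10 members, compared with 18.9% of 32851 RefSeq promoters searched the same way on both strands. In the H2-Mv genes it started 70 to 82 bases before the start at the sites shown. H2-M1 and H2-M9 held another copy on the other strand, at 96 bases before the start, where the H2-M10 genes had none. TATAAA was found within 250 bases in 8 of 10 members, compared with 12.4% of promoters. The 5-letter Smad element GTCTG was found in 7 of 10 (42.2% of promoters), the Smad palindrome GTCTAGAC in 0 of 10 (0.167%) and the AP-2 motif GCCNNNGGC in 0 of 10 (13.7%). A match to the ISRE, the interferon-stimulated response element, was found in B2m alone (2.98% of promoters). TGACG, a core of the cAMP response element, was found in 5 of 10 (17.8%). The H2-Mv promoters shown are alike in sequence, so their matches are not independent of each other. These are matches of letters in a window, and no binding was measured.

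To place the members against each other, levels were compared per length, as deposited TPM, over the 12 control libraries of both lines. B2m stood at 391 ± 83.9 TPM (SD, n = 12), far above the H2-Mv genes, and is known to be made by nearly every cell of an organ. The highest H2-Mv gene was H2-M10.5 (23.1 ± 9.79 TPM), next to H2-M10.4 (22.4 ± 9.89) and H2-M10.3 (17.8 ± 9.58). H2-M1 (12.4 ± 5.86), H2-M10.2 (12.2 ± 4.98) and H2-M10.1 (11 ± 3.45) formed the middle of the order. H2-M9 (6.82 ± 3.55), H2-M10.6 (5.25 ± 1.56) and H2-M11 (1.77 ± 0.604) were lowest. Of the 9 pairs of neighbours in this order, 3 differed within libraries by a two-sided exact sign-flip permutation test with Benjamini-Hochberg adjustment over the 9 pairs. By this exact test B2m was above H2-M10.5 in 12 of 12 libraries (p = 0.000488, adjusted p = 0.0022), H2-M10.1 above H2-M9 in 10 of 12 (p = 0.00537, adjusted p = 0.0161) and H2-M10.6 above H2-M11 in 12 of 12 (p = 0.000488, adjusted p = 0.0022). The log2 difference of H2-M10.1 from H2-M9 was 0.89 over these libraries and 0.21 in the 6 flox controls alone (higher in 4 of 6, exact adjusted p = 0.516). The other neighbours did not differ beyond their spread (adjusted p of at least 0.067), so the order among the 3 highest H2-Mv genes is not settled by these libraries.

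**Figure D1:**
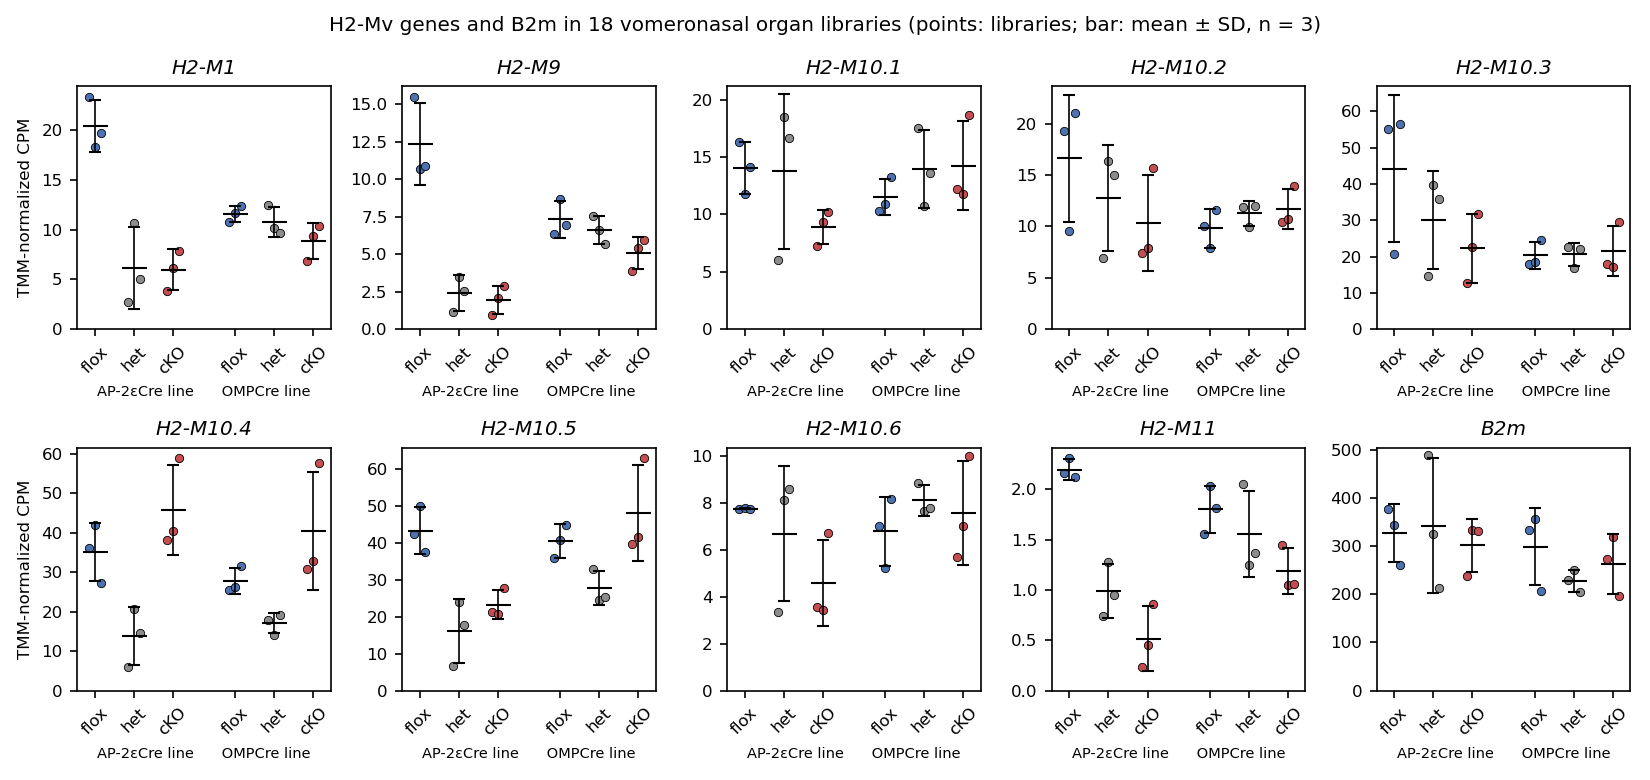
CPM of each member (y axis, linear and from 0) in the 18 libraries by line and genotype (x axis); points are libraries and bars the mean ± SD of 3. H2-M1 and H2-M9 are high in the AP-2εCre flox controls and low in both Cre groups of that line. H2-M10.4 is lower in the heterozygotes than in the other groups of either line, and its cKO and flox ranges overlap.

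The heterozygotes were compared with the flox controls first, since the cKO were read against both. In the AP-2εCre line, H2-M1, H2-M9, H2-M10.4, H2-M10.5 and H2-M11 were lower in all 3 heterozygous libraries than in all 3 flox libraries. H2-M9 stood at 15.5, 10.7 and 10.9 CPM in the flox controls and at 1.14, 3.50 and 2.58 CPM in the heterozygotes. Even the highest heterozygote was thus well under the lowest flox control. The log2 fold change of H2-M9 was -2.36 ± 0.39 (SE) (adjusted p = 0.284, edgeR, the quasi-likelihood test used throughout). H2-M1, its closest relative by sequence, stood at 23.4, 18.3 and 19.7 CPM in flox and at 2.76, 10.7 and 5.03 CPM in heterozygous libraries. Its log2 fold change was -1.73 ± 0.44 (adjusted p = 0.613, edgeR; exact permutation p = 0.1). Again the groups did not overlap, though the heterozygotes were spread widely among themselves.

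The highest H2-M10 genes went the same way in these heterozygotes. H2-M10.4 stood at 36.2, 42.1 and 27.4 CPM in flox and at 6.05, 20.7 and 14.5 CPM in heterozygous libraries, a log2 fold change of -1.35 ± 0.40 (adjusted p = 0.757, edgeR). H2-M10.5 stood at 42.3, 49.9 and 37.4 CPM and at 6.77, 24 and 17.7 CPM, a log2 fold change of -1.42 ± 0.40 (adjusted p = 0.731, edgeR). Both were lower in each heterozygote than in each flox control. H2-M11 was lower in all 3 heterozygotes too (0.739 to 1.28 CPM, compared with 2.12 to 2.31), with a log2 fold change of -1.15 ± 0.33. The remaining H2-M10 genes overlapped between the groups, with log2 fold changes from -0.55 ± 0.45 (H2-M10.3) to -0.03 ± 0.37 (H2-M10.1). B2m overlapped as well (213 to 490 CPM in heterozygotes and 261 to 378 in flox), at a log2 fold change of 0.07 ± 0.29.

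By edgeR, 0 of the 10 members were called at an adjusted p under 0.05 in this comparison, where 0.0224% of 17827 genes were called. At an unadjusted p under 0.05, 5 members were lower and 0 higher, beside 5.18% of all genes in either direction. The same 5 members had heterozygotes wholly below flox controls, as 5.03% of all genes did. DESeq2 called 2 of the 10, H2-M9 (adjusted p = 2.64e-08) and H2-M1 (adjusted p = 0.000739), and 178 genes in all. A two-sided exact permutation test of 3 libraries against 3 cannot go below p = 0.1, the value that each of the 5 reached. The median log2 fold change of the 9 H2-Mv genes was -1.15 and that of all genes tested 0.01.

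One heterozygous library, replicate 1, stood apart from the other two of its group. It had the lowest summed H2-Mv level of all 18 libraries (48.5 CPM, compared with 143 and 117 CPM in replicates 2 and 3 and 173 to 218 CPM in flox controls). It also had the lowest sum of basal markers (457 CPM, compared with 585 CPM or more in the other libraries), 715 CPM of classical class I genes and 490 CPM of B2m, the highest of all. Without it, the log2 fold change was -2.02 ± 0.26 for H2-M9, -1.37 ± 0.32 for H2-M1, -1.05 ± 0.18 for H2-M10.5, -1.0 ± 0.23 for H2-M10.4 and -0.97 ± 0.36 for H2-M11. The differences of these 5 were thus smaller without it and kept their direction. The differences of H2-M10.1, H2-M10.6 and B2m changed sign (0.33 ± 0.17, 0.11 ± 0.16 and -0.28 ± 0.23). Leaving out heterozygote replicate 2 in its place made the differences of the 5 larger, from -1.38 ± 0.37 for H2-M11 to -2.40 ± 0.29 for H2-M1 (adjusted p = 0.0562, edgeR) and -2.74 ± 0.40 for H2-M9 (adjusted p = 0.0974).

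Other genes of basal VSNs also had lower estimates in these heterozygotes. The 10 basal markers summed to 457 to 866 CPM in heterozygotes and 921 to 1107 CPM in flox controls, all 10 had a lower estimate, and 4 of 10 had an unadjusted p under 0.05. Tfap2e, the gene that carries Cre in this line, stood at 5.44 to 8.88 CPM in heterozygotes and 14.0 to 16.6 CPM in flox controls (log2 fold change -1.03 ± 0.20, adjusted p = 0.303, edgeR). Among V2R genes outside family C, the receptors that H2-Mv genes are known to accompany, 56 of 112 were lower and 2 higher at an unadjusted p under 0.05, with a median log2 fold change of -0.65. DESeq2 called 31 of the 114 listed genes of this kind and, of the 10 basal markers, Tfap2e. Family C receptors, which most basal VSNs express beside another V2R, had a median of -0.53. Their part in the result for the H2-Mv genes was not tested.

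In the OMPCre line only the pair of H2-M10.4 and H2-M10.5 separated heterozygotes from flox controls. H2-M10.4 stood at 25.6, 26.3 and 31.7 CPM in flox and at 18, 14.2 and 19.2 CPM in heterozygous libraries (log2 fold change -0.70 ± 0.15, adjusted p = 0.533, edgeR; exact permutation p = 0.1). H2-M10.5 stood at 35.8, 40.7 and 44.9 CPM and at 33.0, 24.6 and 25.4 CPM (log2 fold change -0.55 ± 0.15, adjusted p = 0.708, edgeR; exact permutation p = 0.1). For both genes all heterozygotes lay below all flox controls. H2-M1 (-0.11 ± 0.14) and H2-M9 (-0.15 ± 0.19) differed by less than their SE, and the other H2-Mv genes lay between -0.21 ± 0.32 (H2-M11) and 0.27 ± 0.20 (H2-M10.1). B2m was at -0.39 ± 0.21 with overlapping groups.

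Among these members 0 of 10 were called by edgeR, beside 0.0441% of 18124 genes, and 2 had an unadjusted p under 0.05, beside 5.54%. The 2 that lay wholly below compare with 5.07% of all genes. DESeq2 called 1 of 10, H2-M10.4 (adjusted p = 0.0126), and 147 genes in all. The summed basal markers overlapped here (910 to 991 CPM in heterozygotes, 823 to 1129 in flox controls). Markers of main olfactory neurons (Cnga2, Adcy3 and Gnal), the sensory neurons of the nose's main epithelium, summed to 177 to 221 CPM in these heterozygotes, 81.7 to 117 CPM in flox controls and 88.8 to 122 CPM in cKO. All 3 had higher estimates at an unadjusted p under 0.05 (median log2 fold change 1.23), 0 were called by edgeR and 2 (Cnga2 and Gnal) by DESeq2. Their part in the values of H2-M10.4 and H2-M10.5 was not tested.

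Whether carrying Cre went with a different change in the 2 lines was tested with an interaction term in the 12 control libraries. The estimate was -2.21 ± 0.47 for H2-M9 (adjusted p = 0.65, edgeR) and -1.62 ± 0.51 for H2-M1 (adjusted p = 0.764), the AP-2εCre line having the lower value. H2-M11 followed at -0.94 ± 0.43 (adjusted p = 0.919). For H2-M10.4 (-0.66 ± 0.48) and H2-M10.5 (-0.87 ± 0.48) the adjusted p was 0.987 and 0.976. Of the 10 members, 0 were called by edgeR, beside 0.0317% of 18938 genes, and 3 had an unadjusted p under 0.05, beside 5.37%. DESeq2 called H2-M9, and 91 genes in all.

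**Figure D2:**
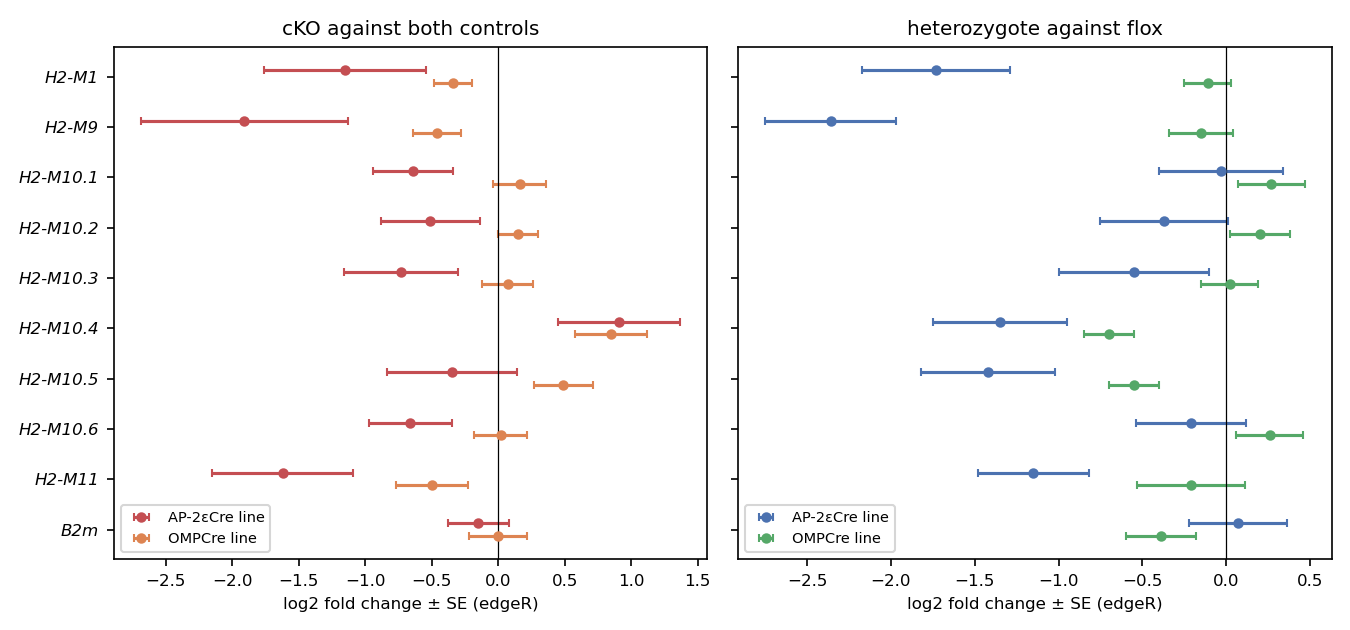
Log2 fold change ± SE (x axis, edgeR) of each member (y axis) for the cKO against both controls on the left and the heterozygotes against flox controls on the right, with a colour for each line. H2-M10.4 is the only member whose estimate is above 0 in the cKO of both lines with an SE that does not reach 0 and below 0 in the heterozygotes of both. The heterozygotes are among the controls on the left, so the sides share libraries. Against flox controls alone H2-M10.4 is at 0.38 ± 0.21 in the AP-2εCre cKO and 0.54 ± 0.24 in the OMPCre cKO.

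In the AP-2εCre cKO, read against both kinds of control together, H2-M10.4 had a higher mean and the other 8 H2-Mv genes a lower one. H2-M10.4 stood at 38.1, 40.5 and 59.0 CPM in the cKO, compared with 27.4 to 42.1 CPM in flox and 6.05 to 20.7 CPM in heterozygous controls. Each cKO library was above each heterozygote, while the flox range reached into that of the cKO. The log2 fold change was 0.91 ± 0.46 (p = 0.0747, adjusted p = 0.542, edgeR; two-sided exact permutation p = 0.0714, where 84 splits allow no p below 0.0119). Against heterozygotes alone, which carry Cre as the cKO do, it was 1.74 (adjusted p = 0.335), and against flox controls alone 0.38. In deposited TPM, which is not scaled by the TMM method as CPM is, H2-M10.4 was at 40.0 to 63.9 in the cKO and at most 37.1 in the 6 controls. The cKO and control libraries thus overlapped in CPM and lay apart in TPM. The cause of this difference between the scales was not tested.

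H2-M9, H2-M11 and H2-M1 had the lowest estimates in these cKO. H2-M9 stood at 0.943, 2.06 and 2.85 CPM, overlapping the heterozygotes (1.14 to 3.50) and below the flox controls (10.7 to 15.5). Its log2 fold change was -1.91 ± 0.78 (p = 0.0341, adjusted p = 0.445, edgeR; exact permutation p = 0.167). H2-M11, the member with the fewest counts, stood at 0.232, 0.450 and 0.866 CPM in the cKO, compared with 0.739 to 1.28 in heterozygotes and 2.12 to 2.31 in flox controls. This gave -1.62 ± 0.53 (p = 0.0117, adjusted p = 0.353, edgeR; exact permutation p = 0.0476) from 15 counts or more per library. H2-M1 stood at 3.80, 6.18 and 7.91 CPM, within the range of the heterozygotes (2.76 to 10.7), and its log2 fold change was -1.15 ± 0.61. For H2-M1 and H2-M9 the distance was one from the flox controls: against these alone the log2 fold change was -1.78 and -2.66, and against heterozygotes alone -0.04 and -0.30.

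The remaining H2-M10 genes were spread over both controls. H2-M10.1 (8.91 ± 1.52 CPM in the cKO and 13.9 ± 4.48 in controls), H2-M10.2 (10.3 ± 4.67 and 14.7 ± 5.5), H2-M10.3 (22.2 ± 9.54 and 37.1 ± 17.2) and H2-M10.6 (4.57 ± 1.85 and 7.21 ± 1.92; SD, n = 3 and 6) had log2 fold changes from -0.73 ± 0.43 to -0.51 ± 0.37, and their groups overlapped. H2-M10.5 stood at 20.8 to 27.7 CPM, below the flox controls (37.4 to 49.9) and overlapping the highest heterozygote (24). Its log2 fold change was -0.35 ± 0.49, and it was -0.90 against flox and 0.53 against heterozygotes. B2m was at 301 ± 54.0 CPM in the cKO and 335 ± 96.4 CPM in controls (-0.15 ± 0.23).

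No member was called by edgeR in the AP-2εCre cKO (0 of 10, beside 0.0378% of 18495 genes) or by DESeq2 (0 of 10, with 316 genes called in all). At an unadjusted p under 0.05 there were 2 members, both lower (H2-M9 and H2-M11), beside 10.2% of all genes. No member lay wholly above or wholly below both kinds of control in CPM, which 2.21% and 2.85% of all genes did. The median over the 9 H2-Mv genes was -0.66, and over all genes tested 0.00. Leaving out heterozygote replicate 1, the library that stood apart, gave 0.71 ± 0.31 for H2-M10.4, -2.14 ± 0.64 for H2-M9 and -1.37 ± 0.46 for H2-M1. The members at an unadjusted p under 0.05 were then 7 (H2-M10.4 higher and H2-M1, H2-M9, H2-M10.1, H2-M10.3, H2-M10.6 and H2-M11 lower), beside 9.16% of all genes, with adjusted p of at least 0.236. Without cKO replicate 3 there were 4, all lower, and with each other library left out 1 to 3. The deposited files have names of 2 forms, by letters or by line, which the labels do not explain. Within the libraries named by letters (2 cKO and 4 controls), the log2 ratio of mean CPM was 0.92 for H2-M10.4, -1.65 for H2-M9 and -1.30 for H2-M11. Within those named by line (1 cKO and 2 controls) it was 0.87, -2.83 and -2.73.

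The basal markers of these cKO summed to 585 to 775 CPM, below the flox controls (921 to 1107) and within the range of the heterozygotes (457 to 866), and 8 of 10 had a lower estimate. Of these markers 7 are the family C receptors (Vmn2r1 to Vmn2r7), so that this list and that of family C overlap. The 4 apical markers summed to 1038 to 1073 CPM, above the 800 to 956 CPM of all 6 controls. Of the other 3, Robo2 was at 0.27 ± 0.17, Gnao1 at -0.05 ± 0.16 and Tfap2e at -0.02 ± 0.31 against both controls together, and Tfap2e in the cKO (10.0 to 12.5 CPM) lay below all flox controls and above all heterozygotes. Of the markers of sustentacular and gland cells, 4 of 4 had a lower estimate and 3 an unadjusted p under 0.05 (median -0.74; summed level 43589 to 75692 CPM in cKO and 70534 to 152462 CPM in controls), and DESeq2 called 1, Lcn3. Of the immune cell markers, 9 of 10 had a higher estimate and 3 an unadjusted p under 0.05 (median 0.35). Family C receptor genes had a median log2 fold change of -0.74, with 5 of 7 lower at an unadjusted p under 0.05, and V2R genes outside family C a median of -0.38. H2-M10.4 stood on the other side of 0 from the medians of both receptor lists. The part of these genes in the values of the members was not tested.

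In the OMPCre cKO, H2-M10.4 was again the member with the highest estimate. It stood at 30.8, 33.0 and 57.8 CPM, compared with 25.6 to 31.7 CPM in flox and 14.2 to 19.2 CPM in heterozygous controls. All cKO libraries were above all heterozygotes, and the lowest cKO lay within the flox range. The log2 fold change was 0.85 ± 0.27 (p = 0.0104, adjusted p = 1, edgeR; exact permutation p = 0.0476). It was 1.24 against heterozygotes alone, 0.54 against flox alone, and 0.50 when cKO replicate 3, at 57.8 CPM, was left out. The log2 ratio of mean CPM was 0.60 within the libraries named by letters and 1.18 within those named by line, of which that replicate is the only cKO. H2-M10.5 went the same way, at 39.6, 41.6 and 62.9 CPM compared with 24.6 to 44.9 CPM in controls (0.49 ± 0.22, adjusted p = 1, edgeR; exact permutation p = 0.119). It was 0.25 ± 0.22 without cKO replicate 3, 0.80 against heterozygotes alone and 0.24 against flox alone.

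H2-M1 and H2-M9 had estimates a little below 0 in the OMPCre cKO. H2-M9 stood at 3.89, 5.41 and 5.93 CPM compared with 5.67 to 8.71 CPM in controls (-0.46 ± 0.18, adjusted p = 1, edgeR; exact permutation p = 0.0476). H2-M1 stood at 6.90, 9.33 and 10.4 CPM compared with 9.72 to 12.5 CPM (-0.34 ± 0.14, adjusted p = 1, edgeR; exact permutation p = 0.0714). In both genes the highest cKO library overlapped the lowest controls, and for both the distance came from the libraries named by letters (log2 ratio of means -0.65 for H2-M9 and -0.47 for H2-M1) and was -0.09 in those named by line. H2-M11 was at -0.50 ± 0.27. H2-M10.1, H2-M10.2, H2-M10.3 and H2-M10.6 lay between 0.02 ± 0.20 and 0.16 ± 0.20, and B2m (263 ± 61.9 CPM in the cKO and 263 ± 65.5 in controls) at -0.00 ± 0.22.

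By edgeR, 0 of the 10 members were called in the OMPCre cKO, as were 0% of 18623 genes, of which 735 had an unadjusted p under 0.05. DESeq2 called 0 members as well, and 46 genes in all. An unadjusted p under 0.05 was reached by 4 members, 2 higher (H2-M10.4 and H2-M10.5) and 2 lower (H2-M1 and H2-M9), beside 3.95% of all genes. With each library left out in turn this count was 1 (without heterozygote replicate 1) to 3, and 2, both lower, without cKO replicate 3. None lay wholly above or below all controls, which 1.41% and 0.94% of genes did. The summed basal markers of the cKO (835 to 1087 CPM) lay within those of the controls (823 to 1129 CPM), and 6 of these 10 genes had a lower estimate. At an unadjusted p under 0.05, Tfap2e (0.27 ± 0.11) and Robo2 (0.27 ± 0.09) were higher and Vmn2r5 (-1.51 ± 0.30) was lower. Vmn2r5 stood at 5.19 to 8.27 CPM in the cKO and 9.71 to 25.8 CPM in controls, and DESeq2 called it. The apical markers summed to 987 to 1040 CPM in the cKO, above the 855 to 954 CPM of all controls. Their part in the values of the members was not tested. V2R genes outside family C had a median of 0.11 and those of family C a median of -0.13. The 9 H2-Mv genes had a median of 0.07.

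Whether the cKO changed members by different amounts in the 2 lines was tested over all 18 libraries. The difference was 0.17 ± 0.42 for H2-M10.4 (adjusted p = 1, edgeR), whose effect was positive in both. H2-M9 (-1.02 ± 0.46, adjusted p = 0.986) and H2-M11 (-1.02 ± 0.48, adjusted p = 0.986) had the lowest estimates, followed by H2-M10.1 (-0.81 ± 0.39, adjusted p = 0.988). By edgeR and by DESeq2, 0 of the 10 were called, beside 0.00514% of 19465 genes by edgeR, and 1 had an unadjusted p under 0.05, beside 5.05%. Without AP-2εCre heterozygote replicate 1 this count was 6, all lower (H2-M1, H2-M9, H2-M10.1, H2-M10.5, H2-M10.6 and H2-M11), beside 4.89% of all genes, with adjusted p of at least 0.615. It was 4 without AP-2εCre cKO replicate 3, 3 without OMPCre heterozygote replicate 1 and 0 or 1 with each other library left out. At an adjusted p under 0.05 no difference between the lines was shown for any member.

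Controls of the lines were compared to see how far members vary between animals that keep Smad4. H2-M10.3 had the higher mean in the AP-2εCre line (37.1 ± 17.2 CPM compared with 20.4 ± 3.12 CPM; SD, n = 6 each), at 0.83 ± 0.28 (p = 0.013, adjusted p = 0.564, edgeR; exact permutation p = 0.0498). It was the 1 member of 10 with an unadjusted p under 0.05, beside 6.82% of all genes, and 0 were called by edgeR, beside 0.185% of 18938 genes, or by DESeq2. The nonclassical genes H2-Q2 (log2 fold change 2.41, adjusted p = 0.0299) and H2-T10 (2.30, adjusted p = 0.0172) of the same MHC region were called as higher in the AP-2εCre line. Breeding background and line cannot be told apart in this comparison.

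Since a shift of all H2-Mv genes together would hide how they stand to each other, the share of each gene in the summed H2-Mv TPM of its library was also described. These shares were looked at after the levels had been seen, and they carry no test. They sum to 100% in a library, so that a gain of 1 gene lowers the rest. H2-M10.4 made up 45.8%, 41.1% and 41.6% of the sum in the 3 AP-2εCre cKO libraries, compared with 16.5% to 27.8% in flox and 14.6% to 17.6% in heterozygous controls. In the OMPCre cKO it made up 28.0%, 27.8% and 32.5%, compared with 23.6% to 24.1% in flox and 15.9% to 18.5% in heterozygous controls. In both lines every cKO library was thus above every control, and the distance was wider in the AP-2εCre line. By counts in place of TPM the share was 35.8% to 40.0% compared with 12.4% to 24.3%, and 23.9% to 27.5% compared with 13.4% to 20.4%.

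**Figure D3:**
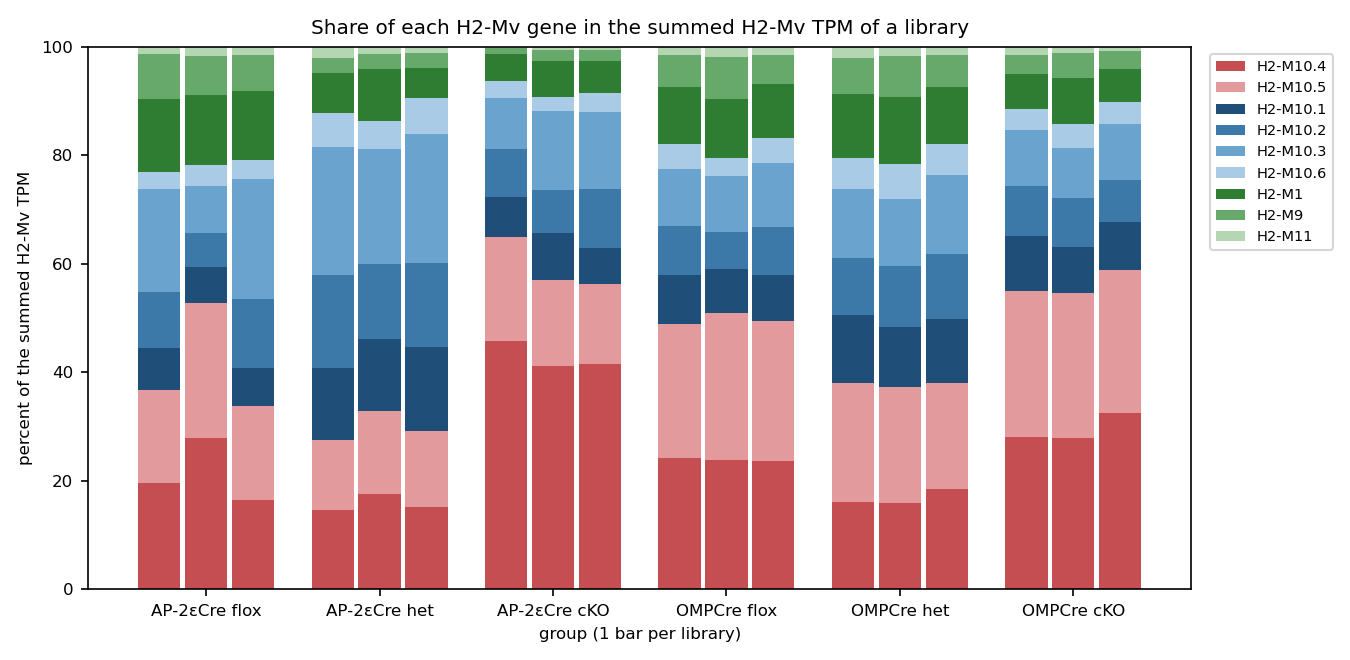
Share of each H2-Mv gene in the summed H2-Mv TPM of a library (y axis, percent), with 1 bar for each of the 18 libraries by group (x axis) and a colour for each gene. The H2-M10.4 band takes 41.1% to 45.8% of the bar in the AP-2εCre cKO and 27.8% to 32.5% in the OMPCre cKO, above all control bars of the line, and the H2-M9 and H2-M11 bands of the cKO are narrower than those of all controls in both lines.

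In the AP-2εCre cKO the other mean shares by TPM were below those of the controls, from 12.8% compared with 19.8% for H2-M10.3 to 16.6% compared with 17% for H2-M10.5, which by counts was at 19.3% compared with 18.9%. In both lines the cKO and control ranges lay apart for H2-M9 and H2-M11 beside H2-M10.4. H2-M9 held 1.10% to 2.06% in the AP-2εCre cKO, compared with 2.68% to 2.92% in heterozygotes and 6.66% to 8.35% in flox controls. In the OMPCre cKO it held 3.29% to 4.6% compared with 5.27% to 7.68% in controls. For H2-M11 the share was 0.312% to 0.688% in the AP-2εCre cKO and 1.13% to 2.10% in controls, and 0.667% to 1.47% compared with 1.56% to 2.05% in the OMPCre line. H2-M1 held 6.12% to 8.44% in the OMPCre cKO, below the 9.98% to 12.4% of the controls. In the AP-2εCre cKO its share (4.81% to 6.64%) overlapped that of the heterozygotes (5.58% to 9.59%).

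H2-M10.5, which has a similar level and varied with H2-M10.4 in controls, had a share in the AP-2εCre cKO between those of the controls. It held 14.7% to 19.2% there, compared with 12.9% to 15.3% in heterozygotes and 17.2% to 25% in flox controls. The ratio of H2-M10.4 to H2-M10.5 TPM was 0.951 to 1.15 in the 6 AP-2εCre controls and 2.38, 2.58 and 2.83 in the cKO. In the OMPCre line it was 0.731 to 0.972 in controls and 1.04, 1.04 and 1.23 in the cKO. The ratio was chosen for description after the values of both genes were seen. The controls of both lines, with or without Cre, lay close to a ratio of 1, and only the cKO of the AP-2εCre line lay above 2.

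H2-M10.1, H2-M10.2, H2-M10.3 and H2-M10.6 had higher mean shares in the heterozygotes than in the flox controls and the cKO of either line. Their levels in the AP-2εCre heterozygotes were not higher, with log2 fold changes against flox from -0.55 ± 0.45 (H2-M10.3) to -0.03 ± 0.37 (H2-M10.1). In the AP-2εCre heterozygotes H2-M10.1, for example, held 13.2% to 15.5%, compared with 6.58% to 7.69% in flox and 6.57% to 8.59% in cKO libraries. H2-M10.6 held 5.07% to 6.62% compared with 3.09% to 3.82% and 2.59% to 3.48%. In the OMPCre heterozygotes H2-M10.1 held 11.2% to 12.5% and H2-M10.6 5.79% to 6.48%. The cKO, which also carry Cre, had shares nearer to those of the flox controls. This was not so for the level of H2-M10.1 in the AP-2εCre line. It was 14.1 ± 2.25 CPM in flox, 13.7 ± 6.72 in heterozygous and 8.91 ± 1.52 in cKO libraries.

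Sets of members also varied together over libraries. Over the 12 controls, log2(CPM + 1) of H2-M1, H2-M9, H2-M11, H2-M10.4 and H2-M10.5 correlated with Pearson's r of 0.86 to 0.96 with each other. H2-M10.2 correlated with H2-M10.3 at 0.96, and H2-M10.1 with H2-M10.6 at 0.86, and r among these 4 genes was 0.49 to 0.96. Between them and the first 5 genes r was 0.28 to 0.61. With the cKO added, over all 18 libraries, r of H2-M10.4 was 0.37 with H2-M1, 0.23 with H2-M9, 0.00 with H2-M11 and 0.72 with H2-M10.5. Without AP-2εCre heterozygote replicate 1 these were 0.04, -0.08, -0.22 and 0.48. Taken as deviations from the group means they were 0.80, 0.71, 0.49 and 0.95, so within groups H2-M10.4 still varied with the others. Within groups the sets were not separate, since r was 0.86 for H2-M10.4 with H2-M10.6, 0.85 with H2-M10.1, 0.89 for H2-M10.5 with H2-M10.1 and 0.82 for H2-M1 with H2-M10.1. Between H2-M1 and H2-M9 r was 0.95 over the 18 libraries and 0.91 within groups. For B2m, r with the H2-Mv genes was -0.52 (H2-M10.6) and -0.50 (H2-M10.1) to 0.00 (H2-M11) over 18 libraries, and in controls -0.73 to -0.07. Without AP-2εCre heterozygote replicate 1 it was -0.34 (H2-M10.6) to 0.30 (H2-M1) over the other libraries, so most of the negative values rest on that library. These values are descriptions over libraries that share groups.

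**Figure D4:**
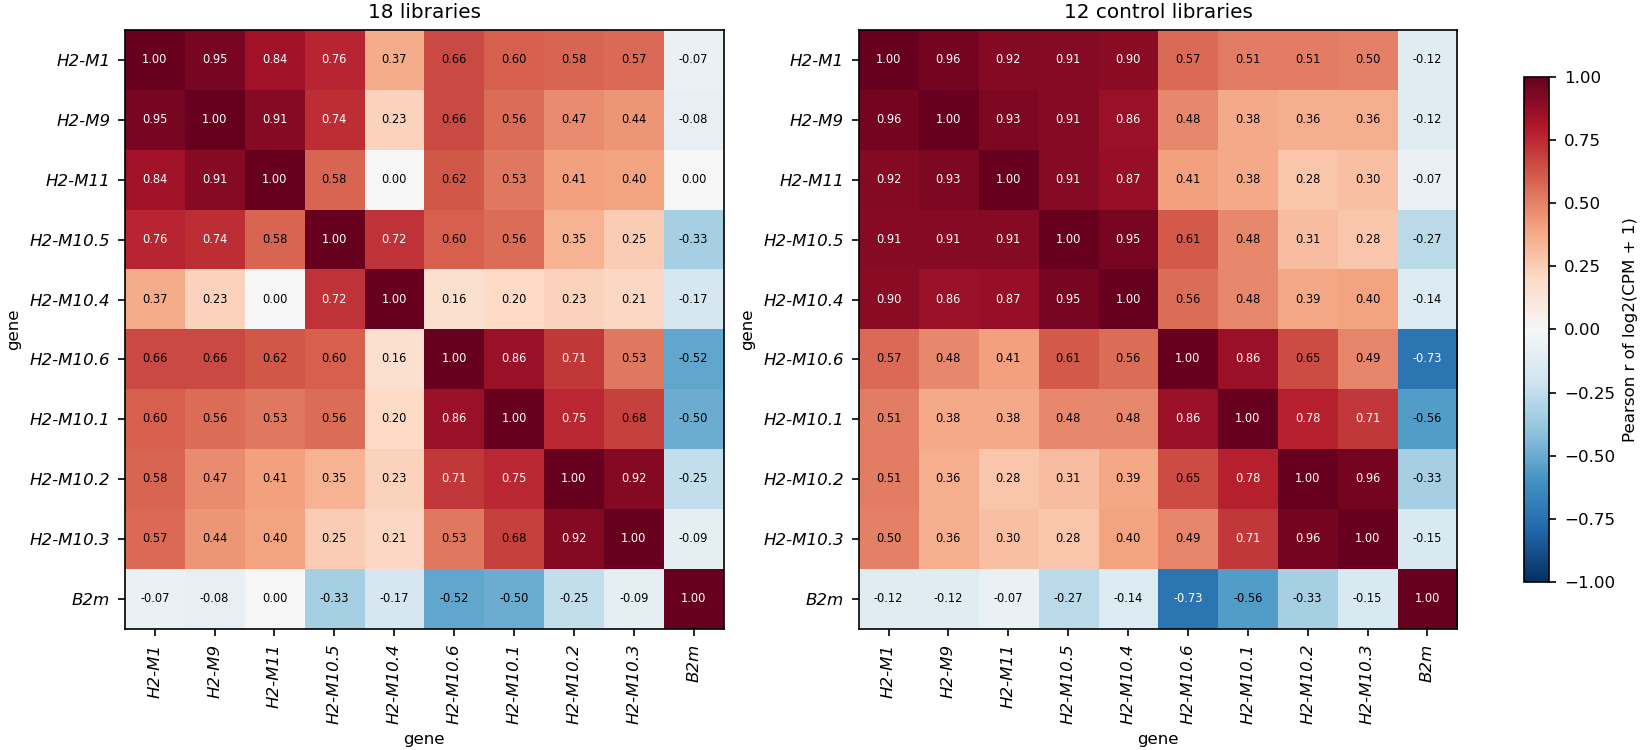
Pearson's r of log2(CPM + 1) between members over 18 libraries (left) and over 12 controls (right), with red for positive and blue for negative values. In controls H2-M1, H2-M9, H2-M11, H2-M10.5 and H2-M10.4 form a block of 0.86 or more, and with the cKO added the row of H2-M10.4 drops to 0.00 to 0.37 against H2-M1, H2-M9 and H2-M11.

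Place in the cluster did not follow these sets. H2-M10.2, H2-M10.1 and H2-M10.3 are neighbours at the low end and their estimates were below 0 in the AP-2εCre cKO and above 0 in the OMPCre cKO, but so were those of H2-M10.6, at the high end. H2-M10.4 and H2-M10.5 are on opposite strands with H2-M11, H2-M9 and H2-M1 between them, and both were lower in all heterozygotes than in all flox controls of either line. H2-M9 and H2-M1 are adjacent, as well as closest in sequence.

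**Figure D5:**
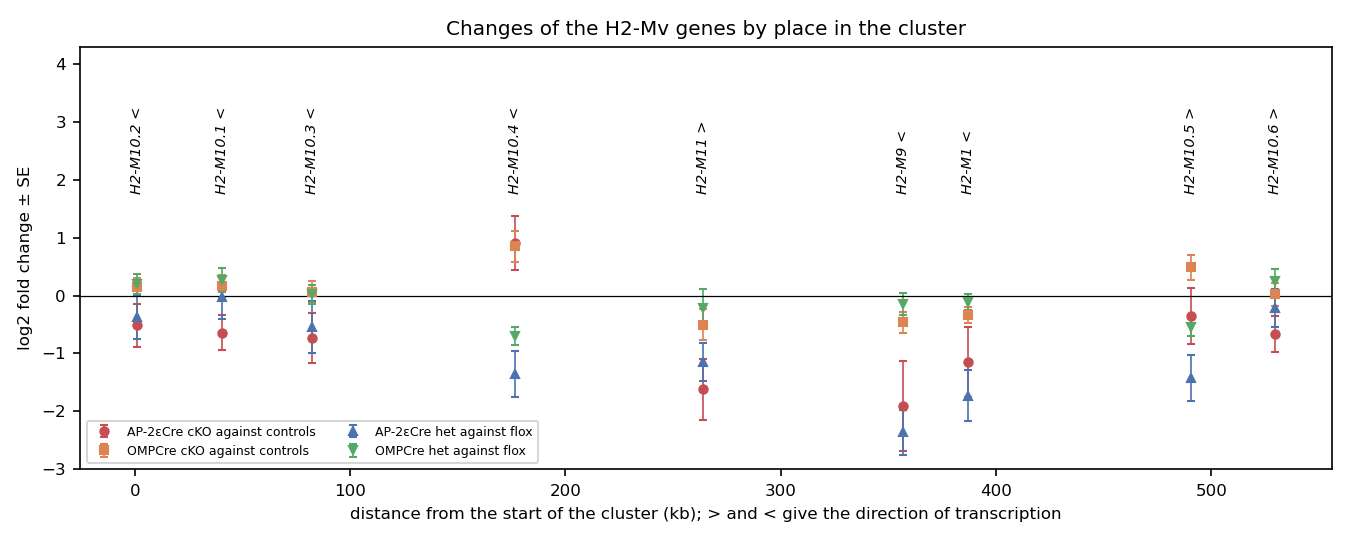
Log2 fold change ± SE (y axis, edgeR) of the 9 H2-Mv genes by distance from the start of the cluster in kb (x axis) in 4 comparisons, with > and < for the direction of transcription. Only at H2-M10.4 are both cKO estimates (0.91 and 0.85) above 0 while both heterozygote estimates (-1.35 and -0.70) are below it. The heterozygotes are also among the controls of the cKO estimates, so these values share libraries.

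Genes outside the members were ranked by how alike their level over the 18 libraries was to the summed H2-Mv level. Among 15828 genes with a mean of at least 1 CPM, the highest were Scg3 (secretogranin III, a protein of secretory granules; r = 0.89), Stbd1 (0.88), Pcdh9 (a protocadherin; 0.87), the V2R gene Vmn2r83 (0.87) and Kirrel3 (a cell adhesion molecule; 0.86). Leaving out the 2 libraries farthest from the median lowered these to 0.62 to 0.72. In the 12 controls alone the top 5 were Wfdc3, Vmn2r25, Vmn2r24, Atp2b2 and Pcdhga8, with 0 shared with the first list. Of the listed basal genes, r was 0.79 for Vmn2r1, 0.77 for Gnao1, 0.72 for Robo2, 0.72 for Vmn2r2 and 0.69 for Tfap2e over the 18 libraries. Without the 2 farthest libraries r was 0.64, 0.40, 0.31, 0.50 and 0.49. For Gnai2 and Omp, which mark apical and mature VSNs, r was 0.12 and 0.27 (0.23 and 0.20 without those libraries). For Trpc2, the transduction channel of VSNs, it was 0.50 and turned to -0.26 without them. In the 12 controls r was 0.90, 0.77, 0.84, 0.85 and 0.71 for the 5 basal genes in the same order, 0.30 for Gnai2 and 0.50 for Omp. Without the 2 farthest of these libraries, however, it was 0.90, 0.39, 0.38, 0.74 and 0.41 compared with 0.63 and 0.50. Only Vmn2r1 and Vmn2r2 of these basal genes then stood above Gnai2.

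The rest of the class I pathway held no calls beside the H2-Mv genes. In the cKO and heterozygote comparisons of both lines, 0 of 2 classical, 0 of 12 tested nonclassical, 0 of 12 assembly and peptide loading, 0 of 7 class II and 0 of 12 interferon response genes were called by edgeR or by DESeq2. In the AP-2εCre cKO, 0 of these genes had an unadjusted p under 0.05. In the OMPCre cKO, 2 class II genes were higher and 1 nonclassical gene lower at that level. The AP-2εCre heterozygotes had 1 classical, 1 nonclassical and 1 loading gene higher, and the OMPCre heterozygotes 2 classical, 1 nonclassical and 2 loading genes lower. The classical heavy chains H2-K1 and H2-D1 were at -0.31 ± 0.22 and -0.24 ± 0.25 in these cKO. In the heterozygotes of the line their estimates were 0.39 ± 0.23 and 0.52 ± 0.22, on the other side of 0 from the 9 H2-Mv genes. Their summed level was highest in replicate 1 of these heterozygotes (715 CPM), with 445 and 404 CPM in the other two and 342 to 412 CPM in flox controls. In the OMPCre heterozygotes both estimates were below 0 (-0.52 ± 0.17, adjusted p = 0.867, and -0.37 ± 0.14, adjusted p = 0.876, edgeR). Pdia3, Calr and Canx, chaperones of the endoplasmic reticulum that help to fold heavy chains, were at -0.13 ± 0.10, -0.17 ± 0.12 and -0.08 ± 0.09 in the AP-2εCre cKO. Tapbp, which holds empty class I molecules near the peptide transporter, was at 0.07 ± 0.08. Among the nonclassical genes, H2-T23, H2-Q4 and H2-T22 lay between -0.16 ± 0.20 and 0.06 ± 0.23. The medians in the AP-2εCre and the OMPCre cKO were 0.05 and -0.06 for the loading genes, 0.02 and -0.05 for the nonclassical genes, 0.13 and 0.15 for class II and -0.01 and -0.24 for the interferon response. In the OMPCre cKO as in the OMPCre heterozygotes (median -0.40), 12 of 12 interferon response genes had a lower estimate. Their summed level was 532 CPM in OMPCre flox replicate 2 and 237 to 335 CPM in the other 17 libraries.

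B2m and the classical genes are also made by immune cells, whose 10 markers summed to 438 to 1121 CPM in the AP-2εCre cKO, 453 to 735 in heterozygotes and 507 to 781 in flox controls. In the OMPCre line the sums were 338 to 498, 399 to 523 and 338 to 566 CPM. The marker sums overlapped between the groups of each line, as did the levels of B2m. Their part in the level of B2m was not tested.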

How the data were processed

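PolyA+ RNA of whole VNOs was made into stranded libraries and sequenced by the authors as single reads of 75 cycles. The authors quantified reads per transcript with Salmon 0.14.0, and the deposited files hold, for 116248 transcripts, an estimated count, which need not be whole, a TPM value and an effective length, the transcript length that salmon corrects for fragment size. The authors' own gene tests used DESeq2 1.22.2, and none of their results were used here. A total of 116072 transcripts were paired with genes of GENCODE vM21 (GRCm38), and 176 were not paired (up to 0.0324% of counts).

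Estimated counts were summed per gene and rounded. The groups come from the sample labels, with the genotype of the flox controls taken from the study's methods. All genes were fitted with edgeR 4.0.16 (R 4.3.3; quasi-likelihood test, TMM, filterByExpr), and p-values were adjusted over all genes tested by the Benjamini-Hochberg method, with a threshold of 0.05. The tests compare each cKO with both controls of its line, each heterozygote with flox, the lines with each other and, by interaction, their effects. P-values are two-sided. Single members were also tested over libraries by exact permutation of CPM, and levels per length use deposited TPM. In simulated counts in which 200 genes differed by 1 on the log2 scale, edgeR recovered 57% in the AP-2εCre cKO comparison, 46.5% in the OMPCre one, 28% and 23% in the heterozygote comparisons. Alternatives were DESeq2 1.42.0, its size factors, no filter, length-scaled counts, either control alone, all libraries in 1 fit, the library series, a replicate block, the library with conflicting labels, and each library left out. The interaction of the heterozygotes and the shares by counts were added after the data were seen. The members, gene lists and tests were chosen with earlier results of these data known. All members are named, and of the other lists the genes called or the up to 4 with the highest level, of which some are given. Library series were read from the form of the deposited files' names. Promoters came from RefSeq tables (GRCm38.p6), in which all 10 members matched.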

Additional observations from a re-analysis of the deposited data

How the results depend on the processing

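Of 440 log2 fold changes of members refitted under another setting (leaving a library out apart), 432 kept their direction and their side of the threshold, 4 passed the threshold and 4 changed sign. Those that passed it were the calls of DESeq2: 2 members in the AP-2εCre heterozygotes, 1 in the OMPCre heterozygotes and 1 in the interaction of the heterozygotes. The sign changed for H2-M10.5 in the AP-2εCre cKO against heterozygotes alone (0.53), H2-M10.6 in the OMPCre cKO against heterozygotes alone (-0.10), and, in the AP-2εCre heterozygotes, for H2-M10.1 with length-scaled counts (0.05) and B2m with the library of conflicting labels added (-0.09). Values that round to 0 with all libraries were counted as kept. Among them, B2m in the OMPCre cKO was at -0.19 against flox alone and 0.21 against heterozygotes alone. The cause was not tested. Leaving out each library in turn changed the sign in 25 of 720 fits, and no fit passed the threshold. The members at an unadjusted p under 0.05 ranged from 2 to 5 in the interaction of the heterozygotes (3 with all libraries), 1 to 3 between the lines (1) and 2 to 3 in the OMPCre heterozygotes (2), and were 5 in each fit of the AP-2εCre heterozygotes. The ranges were -0.08 to 0.28 for H2-M10.1, -0.23 to 0.21 for H2-M10.3 and -0.23 to 0.18 for H2-M10.6 in the OMPCre cKO. They were -0.31 to 0.33 for H2-M10.1, -0.43 to 0.11 for H2-M10.6 and -0.28 to 0.32 for B2m in the AP-2εCre heterozygotes, and -0.06 to 0.18 for H2-M10.3 in the OMPCre heterozygotes. For the interaction of the cKO they were -0.05 to 0.51 for H2-M10.4 and -0.33 to 0.01 for B2m. For B2m in the OMPCre cKO (-0.16 to 0.17) and H2-M1 between the lines (-0.33 to 0.18), whose values with all libraries round to 0, the ranges lay on both sides of 0 and are not among the 25. Between the lines they were -0.20 to 0.19 for H2-M10.4 and -0.16 to 0.11 for H2-M10.6, and for the interaction of the heterozygotes -0.58 to 0.06 for H2-M10.1. By counts in place of TPM, 17 of 36 mean shares moved by more than their SD. Of the 9 neighbours in the order of levels, 0 differed in the flox controls alone, where 6 libraries allow no p below 0.0312, and 5 in all 18 libraries. The replicate numbers belong to different animals and were not taken as pairs. The correlation of deviations between libraries of the same number was -0.339 to 0.206 (mean -0.0895) in the AP-2εCre line and 0.0354 to 0.565 (mean 0.26, compared with -0.126 for other pairs) in the OMPCre line, where replicate 3 is also the library named by line in each group. With the replicate number as a block edgeR called 0 members in each comparison of a cKO or a heterozygote with its controls. The interactions and the comparison between the lines were not fitted with it. At these depths H2-M11 rests on as few as 15 counts and H2-M9 on 61.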

Other observations

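The library whose labels conflict was placed in no group outside the alternative that added it to the heterozygotes. Its H2-Mv levels were 2.96 TPM for H2-M1, 1.11 for H2-M9, 0.928 for H2-M11, 10.6 for H2-M10.4, 9.71 for H2-M10.5, 12.1 for H2-M10.3, 8.97 for H2-M10.1, 5.82 for H2-M10.2 and 3.25 for H2-M10.6, with 315 TPM of B2m. H2-M10.4 made up 19.1% of its summed H2-Mv TPM, H2-M10.3 21.9%, H2-M10.1 16.2%, H2-M1 5.34% and H2-M9 1.99%.

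H2-M10.4 is annotated with 2 protein-coding transcripts, and the shorter took 51.0% to 73.2% of the gene's counts over the libraries. H2-M9 also has 2, of which the longer took 54.9% to 88.9%.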
